A study of Mus musculus with 9 samples.

Results

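The subunits of oxidative phosphorylation and their named assembly factors were followed in gastrocnemius muscle of 9 mice of 6 genotypes, measured with 1 expression array per mouse. The set held every probe set whose single annotated gene symbol begins with Nduf, Sdha, Sdhb, Sdhc, Sdhd, Uqcr, Cox4, Cox5, Cox6, Cox7, Cox8 or Atp5. That rule found 73 genes with 100 probe sets, among the 8251 genes and 12422 probe sets of the array, and it used no measured value. Complex I held 42 probe sets, complex II 6, complex III 7, complex IV 23 and complex V 22.

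The arrays were of 2 wild-type mice (strain background C57Bl/DBA2/129OLA-Ev in the labels, 7 weeks old), 1 hDMD mouse (11 weeks), 2 hDMD mdx mice (24 and 10 weeks), 1 hDMD mdx utrn-/- mouse (9 weeks), 2 mdx mice (15 and 13 weeks) and 1 mdx utrn-/- mouse (5 weeks). hDMD stands for the human dystrophin gene carried as a transgene, mdx for the mutation of the mouse dystrophin gene, and utrn-/- for loss of utrophin, a relative of dystrophin. The mdx and mdx utrn-/- mice (3 mice) therefore lacked dystrophin, and the other 6 carried the mouse gene, the human gene or both. All mice were male except wild-type 1. Numbers after a genotype only name the mouse, and 3 genotypes had a single mouse, so a genotype and its mouse cannot be told apart there.

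Oxidative phosphorylation makes most of the ATP of a resting or slowly contracting muscle fibre. Complex I takes electrons from NADH and complex II from succinate, complex III passes them to cytochrome c, complex IV hands them to oxygen, and complex V uses the proton gradient to make ATP. Most subunits are encoded in the nucleus, some in mitochondrial DNA, and only nuclear genes were members here. Several complex IV subunits exist in a form of striated muscle (Cox6a2, Cox7a1, Cox8b) and a form found widely in tissues (Cox6a1, Cox7a2, Cox8a). Defects of mitochondrial energy supply are a long-standing subject in dystrophic muscle.

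Values are log2 of the quantile-normalised deposited intensity plus 16, with values of 0 or less set to the floor of 4, and a difference is between 2 such levels. The 9 hybridisation spike-in probe sets, control RNA added at hybridisation, divided the arrays into 3 bright ones with array medians of 206 to 225 (wild-type 1, mdx 2 and hDMD mdx 1) and 6 dim ones (28.5 to 42.3). The 3′ to 5′ signal ratio of actin was 1.20 to 1.87 in the bright arrays and 0.669 to 0.908 in the dim ones. Each of the genotypes with 2 mice had 1 bright and 1 dim array. Wild-type 2 stood apart in cell markers: the summed intensity of the adipocyte markers was 7815 there and 2339 to 4409 elsewhere. Its summed macrophage markers were at 1332, within the 995 to 1851 of the 3 dystrophin-lacking mice, against 251 to 371 in the other 5 carriers, and its summed matrix-cell markers (5424) were the highest of the 9. The medians over all members and the named genes of the comparisons with this mouse are given without it too where that moved them by over 1.5 times. The summed skeletal muscle markers were 28954 in mdx utrn-/- and 31524 to 33929 in the other 8 mice. Markers of heart muscle were near the floor (summed intensity 4.13 to 26.9). The Dmd probe set read at most 4.95 and the 2 Utrn probe sets at most 6.16, so they gave no check of the genotypes.

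Of the 100 probe sets, 79 (68 genes) passed the filter on dim signal and were tested, namely 31 of complex I, 6 of complex II, 7 of complex III, 16 of complex IV and 19 of complex V. The 21 others had mean levels of at most 4.38 and were not tested, and 2 of them were at the floor in all arrays. For 5 genes every probe set was dim: Cox5a, Cox8a, Ndufa1, Ndufa12 and Ndufc2. Of the 79, 4 were probe sets of the assembly factors Ndufaf1, Ndufaf4, Sdhaf1 and Sdhaf2, which help build complexes I and II and are not subunits of them.

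The promoters of 4 genes are shown, those of the genes with the largest difference in each direction between dystrophin-lacking and dystrophin-carrying mice (Cox6a1 and Ndufs4) and of the muscle and the wider form of 1 complex IV subunit (Cox7a1 and Cox7a2). Each is the 250 bases before the gene start in RefSeq on mouse build GRCm38.p6: Cox6a1 at chr5:115348959-115349208 on the minus strand, Ndufs4 at chr13:114388095-114388344 on the minus strand, Cox7a1 at chr7:30183921-30184170 on the plus strand and Cox7a2 at chr9:79759854-79760103 on the minus strand. Capitals mark matches on either strand to the core of the NRF1 site (GCATGCGC), the core of the GABP site (CGGAAG), the YY1 motif (AAGATGGC), the ERR motif (AAGGTCA), the GC box (GGGCGG) and the CCAAT box (CCAAT). NRF1, GABP, ERR and YY1 are regulators known for nuclear genes of mitochondria.
Cox6a1: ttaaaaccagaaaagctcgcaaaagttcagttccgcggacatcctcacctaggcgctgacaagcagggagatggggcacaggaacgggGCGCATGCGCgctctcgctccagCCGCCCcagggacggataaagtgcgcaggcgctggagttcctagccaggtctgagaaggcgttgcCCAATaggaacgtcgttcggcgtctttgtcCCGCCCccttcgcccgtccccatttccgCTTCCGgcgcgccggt
Ndufs4: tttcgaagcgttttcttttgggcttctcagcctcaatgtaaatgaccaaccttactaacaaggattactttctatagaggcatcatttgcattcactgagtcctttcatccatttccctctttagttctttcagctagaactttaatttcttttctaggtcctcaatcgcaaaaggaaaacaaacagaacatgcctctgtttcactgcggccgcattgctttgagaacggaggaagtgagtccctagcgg
Cox7a1: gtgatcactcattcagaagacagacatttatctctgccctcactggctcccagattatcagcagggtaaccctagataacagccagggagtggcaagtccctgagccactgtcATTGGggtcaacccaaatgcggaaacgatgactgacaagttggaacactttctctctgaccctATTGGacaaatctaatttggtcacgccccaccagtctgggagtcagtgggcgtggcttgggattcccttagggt
Cox7a2: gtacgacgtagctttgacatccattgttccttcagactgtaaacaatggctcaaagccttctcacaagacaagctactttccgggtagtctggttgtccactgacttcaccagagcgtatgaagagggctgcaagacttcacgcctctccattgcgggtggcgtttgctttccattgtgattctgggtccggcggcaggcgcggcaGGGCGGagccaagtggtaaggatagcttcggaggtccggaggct

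Cox6a1 held the NRF1 core in both orientations, overlapping, from base -162, with a GABP core at -16, a CCAAT box at -74 and GC boxes at -139 and -44. Cox7a1 held CCAAT boxes, in reverse, at -137 and -74, Cox7a2 a GC box at -44, and Ndufs4 none of the motifs in these bases. RefSeq promoters were at hand for 60 of the 73 genes (65 promoters of 300 bases, 250 before and 50 after the start). The NRF1 core was in 10 of them (15.4% against 2.71% of all 32851 promoters), among them those of Ndufa8, Sdhb, Uqcrc1, Cox6a1 and Atp5g2. The GABP core was in 31 (47.7% against 16.9%), the YY1 motif in 8 (12.3% against 2.75%) and the ERR motif in 5 (7.69% against 4.72%). The GC box was in 31 (47.7% against 35.7%) and the CCAAT box in 26 of the 65 (37.4% of all). In the 50 bases after the start, which are not shown, Ndufs4 held the YY1 motif at base 36. Cox7a2 held the GABP core there, in reverse, at base 35. A match says only that these letters are in the window.

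No oxidative phosphorylation probe set passed the threshold in any comparison of genotypes. Between the 3 dystrophin-lacking and the 6 dystrophin-carrying mice, 0 of 79 had a limma adjusted p under 0.05, beside 0.121% of all 7453 probe sets tested. With array brightness as a block the members' count was again 0, beside 0.148%. At an unadjusted p under 0.05 there were 2 of 79 (Ndufs4 and Ndufaf4, both lower without dystrophin), a smaller share than the 5.58% of all probe sets. The members were divided evenly, 41 higher and 38 lower without dystrophin, with a median difference of 0.02, beside -0.01 over all probe sets. For 67 of the 79 the 95% interval of the difference lay within 1 log2 unit of 0 (84.8%, beside 65.5% of all probe sets). The interval reached a median of 0.54 to either side. For probe sets near the floor, the added 16 makes 1 such unit more than a 2-fold change of intensity. Leaving out wild-type 2 gave a median of -0.05 and 0 calls. In whole muscle, fewer cells of a type and less RNA per cell cannot be told apart.

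**Figure D1:**
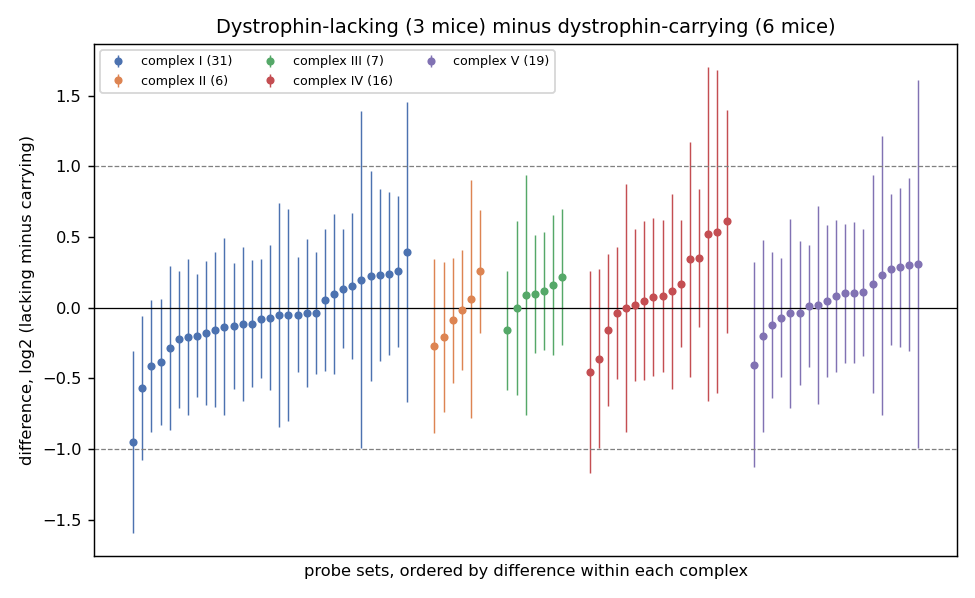
Difference in level (log2, dystrophin-lacking minus dystrophin-carrying, y axis) of the 79 probe sets tested, ordered within each complex along the x axis. Points are limma estimates from 3 against 6 mice, bars are 95% intervals and dashed lines mark a difference of 1 log2 unit. The intervals of Ndufs4 and Ndufaf4, at the left of complex I, lie below 0 before adjustment, and no probe set passed after it.

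By complex, the median difference without dystrophin was -0.07 in complex I, where 21 of 31 probe sets were lower, and -0.05 in complex II, where 4 of 6 were lower. It was 0.10 in complex III (5 of 7 higher), 0.08 in complex IV (11 of 16 higher) and 0.08 in complex V (13 of 19 higher). Each of these medians is smaller than the pooled standard deviation of the members' array medians within genotypes, 0.20. By genotype that deviation was 0.33 in wild-type, 0.09 in hDMD mdx and 0.08 in mdx. It describes single arrays, so it is no test of the medians by complex. Across the 6 genotypes, 0 of 79 passed limma's F test (0% of all probe sets did), and 0 had an unadjusted p under 0.05, beside 2.95% of all.

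In complex I, Ndufs4 gave the largest difference of all members. Ndufs4 is an accessory subunit of the arm that binds NADH, and its loss is a known cause of Leigh syndrome. Its level was 5.00 and 5.29 in the wild-type mice, 6.04 in hDMD, 5.32 and 5.79 in hDMD mdx, 5.88 in hDMD mdx utrn-/-, 4.41 and 5.13 in mdx and 4.26 in mdx utrn-/-. The groups overlapped, since mdx 2 lay above wild-type 1. The difference was -0.95 ± 0.29 (SE; 3 against 6 mice; limma adjusted p = 0.621), and it was -0.02 within the 3 bright arrays and -1.42 within the 6 dim ones. Scaling the arrays by their medians gave -0.40, and a pseudocount of 1 in place of 16 gave -1.95, the gene lying near the floor of 4.

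Ndufaf4, an assembly factor of complex I, was at 5.91 and 5.15 in wild-type, 5.83 in hDMD, 6.04 and 5.83 in hDMD mdx, 5.84 in hDMD mdx utrn-/-, 5.30 and 5.08 in mdx and 5.20 in mdx utrn-/-. The 3 dystrophin-lacking mice lay below 5 of the 6 carriers, and wild-type 2 lay among them. The difference was -0.57 ± 0.23 (limma adjusted p = 0.862). It was -0.69 without wild-type 2 and -0.28 under median scaling. The other assembly factor of complex I, Ndufaf1, lay between 5.34 and 6.74 and was higher in the bright arrays.

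Ndufa10, an accessory subunit of the membrane arm, was the single member whose groups did not overlap. It was at 6.21 to 6.29 in the 3 dystrophin-lacking mice and at 6.45 to 7.14 in the 6 carriers, with hDMD mdx utrn-/- highest. The difference was -0.41 ± 0.22 (limma adjusted p = 0.986). In all, 0 of 79 members lay wholly higher and 1 of 79 wholly lower without dystrophin, beside 1.52% and 1.42% of all probe sets. Among core subunits of complex I, Ndufs1 ranged from 8.16 to 8.74, Ndufs3 from 9.07 to 9.71 and Ndufv1, which binds the flavin, from 9.82 to 10.43. The 2 tested probe sets of the core subunit Ndufv2 had ranges of 0.38 and 0.92. Ndufa9 had the narrowest range of the complex, 0.25, and the widest were those of Ndufa3 (2.48 in the wider of its 2 tested probe sets) and Ndufa5 (2.47).

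In complex II, Sdha, the flavoprotein that oxidises succinate, lay between 6.45 (mdx utrn-/-) and 7.59 (wild-type 1), and its difference without dystrophin was -0.27 ± 0.28. The iron-sulfur subunit Sdhb ranged from 9.51 to 10.09 and the membrane anchor Sdhc from 8.81 to 9.68. The other anchor, Sdhd, had the narrowest range (0.33) and the assembly factor Sdhaf2, which attaches the flavin to Sdha, the widest (1.62). Sdhaf1, an assembly factor for Sdhb, had the third smallest p of the members higher without dystrophin, at 0.26 ± 0.20 (limma adjusted p = 0.999).

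In complex III, Uqcrc1 and Uqcrc2, the core proteins, ranged from 9.94 to 10.51 and from 9.16 to 9.59. Uqcrh, the hinge protein, had the narrowest range (0.34), and Uqcrb (1.58) and Uqcr11 (1.05) the widest. The difference of Uqcrb without dystrophin was 0.09 ± 0.39, and that of Uqcr11 was -0.0048 ± 0.28.

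In complex IV the largest difference upward was read by an _f_at probe set, a suffix for probes shared within a sequence family. It was the only probe set of Cox6a1, the widely expressed form of subunit VIa. Its level was 7.99 and 9.22 in wild-type, 8.26 in hDMD, 8.72 and 8.25 in hDMD mdx, 7.33 in hDMD mdx utrn-/-, 8.54 and 8.96 in mdx and 9.22 in mdx utrn-/-. Mdx utrn-/- and wild-type 2 were highest, within 0.01 of each other, and hDMD mdx utrn-/- was lowest. The difference was 0.61 ± 0.36 (limma adjusted p = 0.999), and 0.80 without wild-type 2. Its muscle counterpart, Cox6a2, was at 11.01 and 10.36 in wild-type and at 10.59 to 10.88 in the other 7 mice, a difference of 0.17 ± 0.21. In wild-type 2 Cox6a2 was thus at its lowest of the 9 mice, and Cox6a1 close to its highest.

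Cox7a1, the muscle form of subunit VIIa, was at 9.00 and 8.26 in wild-type, 9.06 in hDMD, 8.73 in both hDMD mdx mice, 8.75 in hDMD mdx utrn-/-, 9.06 and 9.04 in mdx and 8.41 in mdx utrn-/-. Its difference without dystrophin was 0.08 ± 0.25. The wider form, Cox7a2, was at 8.67 and 8.93 in wild-type, 9.46 in hDMD, 9.15 and 9.44 in hDMD mdx, 9.26 in hDMD mdx utrn-/-, 9.47 and 8.86 in mdx and 9.19 in mdx utrn-/-, a difference of 0.02 ± 0.25. None of the 4 genes of these pairs passed the test. Cox7a2l, a related protein that joins complexes III and IV, ranged from 6.99 (hDMD mdx utrn-/-) to 8.50 (wild-type 2), with a difference of 0.12 ± 0.32.

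Cox8b, the muscle form of subunit VIII, had 2 probe sets that gave differences of -0.04 ± 0.21 (suffix _r_at, the narrowest range of the complex, 0.62) and -0.0042 ± 0.40 (suffix _at). Cox8c, known from testis, gave -0.16 ± 0.25, and its counterpart Cox8a was dim. For Cox4i1, the main form of subunit IV, 1 probe set (suffix _f_at) ranged over 2.44 and gave 0.52 ± 0.54, and the other (suffix _at) gave 0.08 ± 0.26. Cox6b1 gave -0.45 ± 0.33. The 2 tested probe sets of Cox6b2, a form known from testis, disagreed in sign, -0.36 ± 0.29 (suffix _r_at) and 0.34 ± 0.38 (suffix _f_at), and no other gene had probe sets more than 0.5 apart. Cox7b, a small subunit, was at 8.70 to 9.52 in the carriers and at 9.33 to 9.48 in the dystrophin-lacking mice, a difference of 0.35 ± 0.22 (limma adjusted p = 0.999) in which hDMD overlapped. Cox6c had the widest range of the complex, 2.63.

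**Figure D2:**
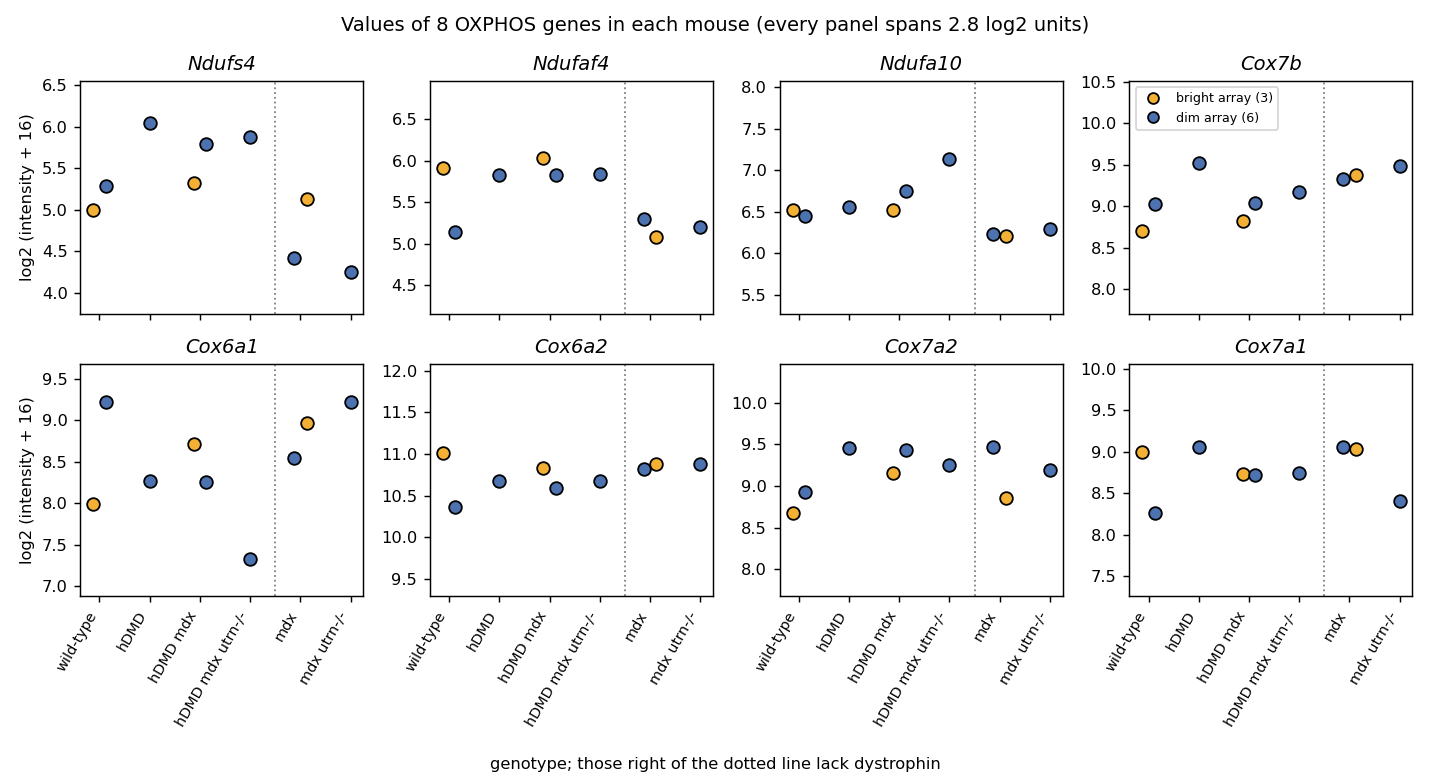
Level (log2 of intensity plus 16, y axis) of 8 genes in each of the 9 mice by genotype (x axis), with the bright arrays in yellow and the dim arrays in blue. For Ndufa10 the 3 mice right of the dotted line lie at 6.21 to 6.29, below the 6 carriers, while the groups of the other 7 genes overlap.

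In complex V, Atp5o, the stalk subunit that links the catalytic head to the membrane part, had the narrowest range (0.37) and a difference without dystrophin of 0.01 ± 0.20. The catalytic head subunit Atp5a1 ranged from 10.00 to 10.41. Atp5pb, the b subunit of the stalk, had the widest range (2.65; 7.24 to 7.66 in the 3 bright arrays and 5.01 to 6.35 in the 6 dim ones), followed by 1 of the probe sets of Atp5d, the delta subunit (2.11). The 4 tested probe sets of Atp5d gave differences from 0.11 to 0.29, and the 2 of Atp5c1, the rotating gamma subunit, gave -0.20 ± 0.31 and -0.12 ± 0.24.

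Compared with all probe sets, the members varied less over the 9 mice. Their median range was 0.90, beside 1.25 over all 7453, and 50 of 79 (63.3%) kept within 1 log2 unit, beside 29.7%. Brighter probe sets vary less in general: above a level of 7.23, the lower quartile of the members, the medians were 0.82 for the members and 1.02 for all.

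**Figure D3:**
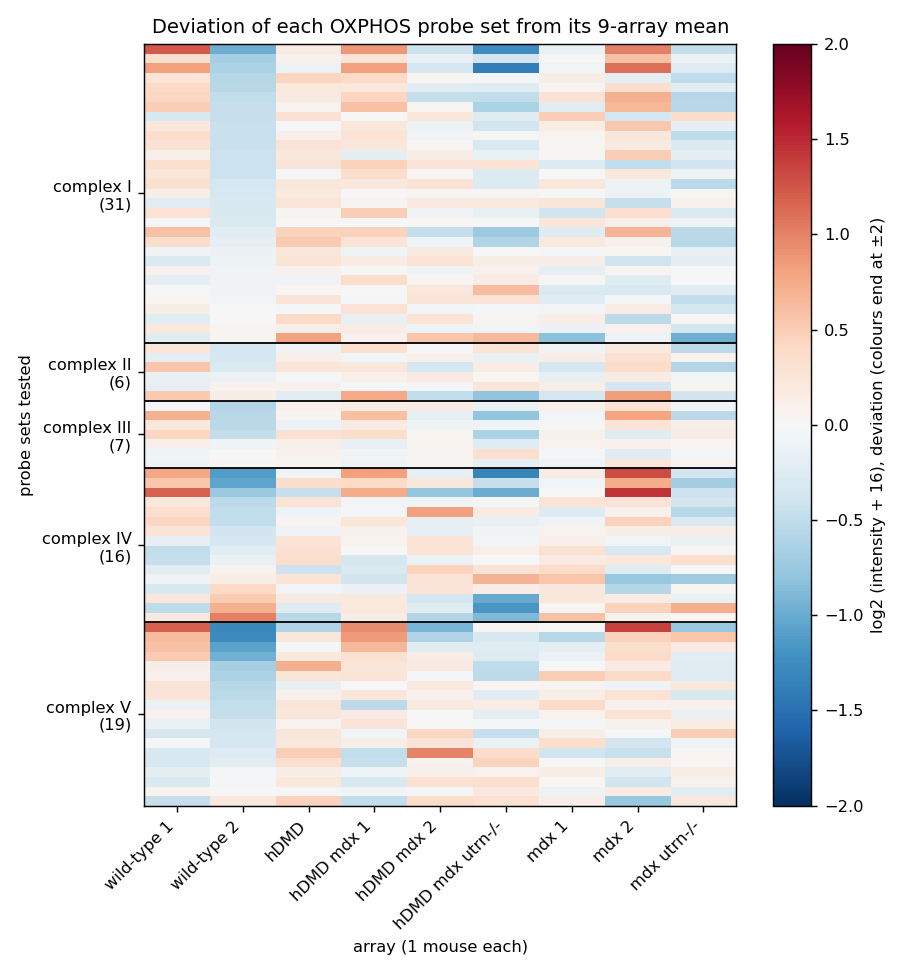
Deviation of each of the 79 tested probe sets (rows, grouped by complex and ordered by wild-type 2) from its mean over the 9 arrays (columns), in log2 units. The column of wild-type 2 is mostly below the mean, 65 of 79 probe sets, and the darkest red rows run through the columns of the 3 bright arrays.

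One wild-type mouse stood lowest. In wild-type 2 the median deviation of the 79 probe sets from their own means was -0.35, and 65 of them lay below their mean. In the other arrays it was 0.12 in wild-type 1, 0.12 in hDMD, 0.16 and 0.04 in hDMD mdx, -0.07 in hDMD mdx utrn-/-, 0.03 and 0.14 in mdx and -0.14 in mdx utrn-/-. Wild-type 2 was the lowest of the 9 arrays for 28 of 79 members (35.4%), beside 12.6% of all probe sets. It had the lowest median of the 9 in 4 of the 5 complexes: -0.32 in complex I, -0.48 in III, -0.28 in IV and -0.48 in V. In complex II it was at -0.21, next to mdx utrn-/- at -0.22. Median scaling also left wild-type 2 lowest, at -0.35, while without normalisation hDMD mdx utrn-/- was lowest. This mouse also had the high adipocyte, macrophage and matrix-cell markers given above, and its slow fibre genes were at a median deviation of -1.23. In mdx 1 the slow fibre genes were at -1.31 and the oxidative phosphorylation genes at 0.03. The part of the cell markers and of the slow fibre genes in the low values of wild-type 2 was not tested.

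**Figure D4:**
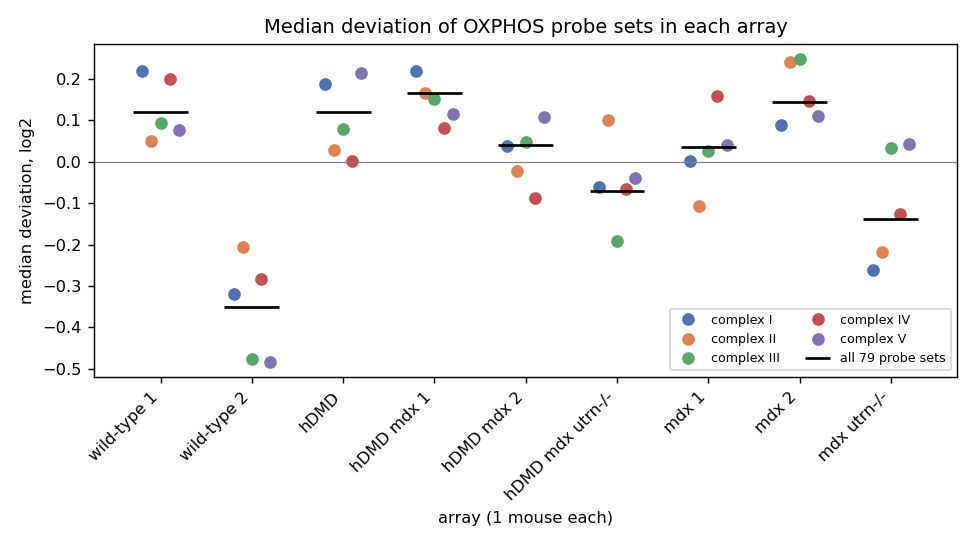
Median deviation (log2, y axis) of the tested probe sets of each complex (coloured points) and of all 79 (black bars) from their means, in each of the 9 arrays (x axis). Wild-type 2 lies at -0.21 to -0.48 in every complex, and the bars of the other 8 arrays lie between -0.14 and 0.16.

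The comparison of mdx with wild-type mice, 2 against 2, turned on that mouse. In it, 58 of 79 members were higher in mdx, with a median difference of 0.16, beside 0.00 over all probe sets. The median was -0.01 between the bright arrays and 0.43 between the dim ones, -0.06 without wild-type 2 and 0.40 without wild-type 1. None passed by limma (0% of all probe sets did), and none had an unadjusted p under 0.05, beside 1.74%. The smallest p upward belonged to Atp5k, subunit e of the membrane part of complex V (0.71 ± 0.38; 0.29 between bright and 1.13 between dim arrays, and 0.34 without wild-type 2), then to Sdhaf1 (0.49 ± 0.32) and Cox7b (0.49 ± 0.33). Downward they belonged to Ndufs4 (-0.37 ± 0.39; 0.14 between bright arrays, -0.23 without wild-type 2 and -0.011 without mdx 1), Ndufaf4 (-0.33 ± 0.38; 0.16 between dim arrays and -0.71 without wild-type 2) and Ndufa10 (-0.27 ± 0.32). With 3 residual degrees of freedom and no call among all probe sets, the lack of calls among the members says little. Both mdx mice (15 and 13 weeks) were older than both wild-type mice (7 weeks), and wild-type 1 was the only female. Age and genotype therefore cannot be told apart fully in this comparison.

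Between hDMD mdx and wild-type mice, which share the wild-type mice with that comparison, 66 of 79 members were higher in hDMD mdx, with a median of 0.16. The median was -0.01 between bright arrays, 0.36 between dim ones and -0.06 without wild-type 2. No member passed by limma, and the share of all probe sets was 0% after adjustment and 0.832% before. The genes with the smallest p were the Atp5d probe set with suffix _at (0.53 ± 0.34), Cox7a2 (0.49 ± 0.37) and the _r_at probe set of Cox8b (0.42 ± 0.32) upward, and the _f_at probe set of Cox6b2 (-0.82 ± 0.45), Cox7a2l (-0.43 ± 0.35) and Sdha (-0.19 ± 0.46) downward. Cox6b2 was at -0.038 between bright and -1.59 between dim arrays, and at -0.40 without wild-type 2. Its other tested probe set (suffix _r_at), near the floor, went the other way, with means of 4.95 in hDMD mdx and 4.47 in wild-type. On the bright arrays that probe set was at 4.52 in hDMD mdx and 4.89 in wild-type. Cox7a2l was at -0.030 between bright and -0.83 between dim arrays, at -0.30 without wild-type 2 and at -0.17 without hDMD mdx 2. Sdha was at -0.62 without wild-type 2 but at 0.23 without wild-type 1. Without wild-type 2, the 3 upward values were 0.52, 0.62 and 0.34. Both hDMD mdx mice (24 and 10 weeks) were also older than the wild-type mice (7 weeks), so age and genotype cannot be told apart fully.

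The human gene was also compared on mice without mouse dystrophin. Between hDMD mdx and mdx mice, 42 of 79 members were higher in hDMD mdx, with a median of 0.05 (-0.02 under median scaling), and 0 passed by limma, beside 0% of all probe sets after adjustment and 2.88% before. Ndufs4 (0.78 ± 0.39), Ndufaf4 (0.74 ± 0.38) and Atp5g1, a ring subunit of complex V (0.67 ± 0.50; -0.04 between bright arrays; levels of 4.01 to 5.48, near the floor), had the smallest p upward. Cox7b (-0.42 ± 0.33), the _f_at probe set of Cox6b2 (-0.55 ± 0.45) and Ndufa2 (-0.53 ± 0.48) had them downward. Cox6b2 was at 0.073 between bright and -1.17 between dim arrays. Its _r_at probe set, near the floor, went the other way, with means of 4.95 in hDMD mdx and 4.47 in mdx. On the bright arrays that probe set was at 4.52 in hDMD mdx and 4.64 in mdx. Leaving out 1 mouse moved Ndufa2 between -0.99 (without hDMD mdx 1) and -0.071 (without hDMD mdx 2). With the hDMD mdx utrn-/- and mdx utrn-/- mice added and utrophin in the fit (3 mice against 3), the median was 0.00 (-0.08 under median scaling) and 0 of 79 passed, beside 0% of all probe sets, or 0.0537% with the brightness block. At an unadjusted p under 0.05 there were 2 members, beside 5.49%. They were Ndufs4 (1.06 ± 0.34, limma adjusted p = 0.711; 0.18 within bright arrays and larger within dim ones) and Ndufaf4 (0.71 ± 0.26, limma adjusted p = 0.821). Next by p were Ndufa10 (0.56 ± 0.27) upward and the _f_at probe set of Cox6b2 (-0.67 ± 0.32), Cox6a1 (-0.81 ± 0.40) and Cox7a2l (-0.46 ± 0.30) downward. Within bright arrays Cox6b2 was at 0.073 and Cox7a2l at 0.044, against -1.04 and -0.71 within dim arrays. The _r_at probe set of Cox6b2 was also higher in hDMD mdx utrn-/- (4.72) than in mdx utrn-/- (at the floor of 4). Leaving out either of the utrn-/- mice gave -0.27 for Cox6a1. These comparisons use the same dystrophin-lacking mice as the first one, so the recurrence of Ndufs4 and Ndufaf4 is not separate evidence.

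Loss of utrophin, on mdx and hDMD mdx backgrounds together (2 mice against 4), left 58 of 79 members lower, with a median of -0.19, beside -0.02 over all probe sets. The median was -0.17 within the dim arrays but -0.02 under median scaling. None passed by limma, as in 0% of all probe sets. At an unadjusted p under 0.05 there were 8, all lower, beside 5.9% of all probe sets: both probe sets of Ndufa3, and Ndufa5, Ndufv3, Uqcrb, Cox6c, Cox8b and Atp5k. With brightness as a block there were 2 of 79, beside 6.86% of all probe sets. Cox6c (-1.38 ± 0.44; -0.85 within dim arrays), the _at probe set of Cox8b (-0.90 ± 0.33; -0.65) and Uqcrb (-0.95 ± 0.37; -0.54) had the smallest p, each with a limma adjusted p = 0.740. Upward the smallest p belonged to the _at probe set of Atp5c1 (0.45 ± 0.39; 0.01 within dim arrays), Ndufa10 (0.29 ± 0.29) and Atp5j2, subunit f of the membrane part of complex V (0.31 ± 0.32). Both utrn-/- mice were on dim arrays, and at 5 and 9 weeks they were younger than the 4 others (10 to 24 weeks), so age and utrophin cannot be told apart fully. With age as a covariate the median was -0.15.

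Some members differed with array brightness. With genotype held in the fit, 8 of 79 members were higher and 1 lower in the bright arrays at a limma adjusted p under 0.05, beside 6.92% and 6.1% of all probe sets. Together that was 11.4% of the members, near the 13.0% of all probe sets. Those higher were Atp5pb (1.90 ± 0.26), Cox4i1 (1.63 ± 0.21), Ndufa3 (1.54 ± 0.27), Atp5d (1.46 ± 0.24), Cox6c (1.35 ± 0.25), Ndufa5 (1.26 ± 0.20), Uqcrb (0.97 ± 0.21) and the assembly factor Ndufaf1 (0.88 ± 0.19). The one lower was the _at probe set of Atp5c1 (-0.81 ± 0.19). Of the 8, 5 were probe sets with the suffix _f_at, which Affymetrix gave to probes shared within a sequence family. The 18 tested members with that suffix had a median difference between bright and dim arrays of 0.53 and a median range of 1.38, against 0.20 and 0.87 in the 53 with plain probe sets. Over all 605 tested probe sets with the suffix these were 0.11 and 1.29. The widest ranges in complexes I, III, IV and V, given above, thus belonged to probe sets that differed with brightness, apart from Uqcr11.

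Other mitochondrial genes were set beside the members. Of 15 tested probe sets for the TCA cycle and pyruvate oxidation, 12 were lower without dystrophin (median -0.08), with Idh3a, a subunit of isocitrate dehydrogenase, at -0.58 ± 0.23 and Suclg1, a subunit of succinyl-CoA ligase, at -0.45 ± 0.22. Of 15 for electron and metabolite carriers, 14 were lower (median -0.14), with Ucp3, the uncoupling protein of muscle, at -1.02 ± 0.47 and Cycs, cytochrome c, at -0.48 ± 0.38. The carriers include Ucp3 at -0.02 within bright and -1.52 within dim arrays. Of 7 for assembly factors, 5 were lower (median -0.11), with Ndufaf4 as above and Cox18 at -0.34 ± 0.29. Of 12 for regulators of mitochondrial genes, 8 were lower (median -0.15), with Yy1 at -0.63 ± 0.31 and Mef2c at 0.47 ± 0.29. Of 59 for the mitochondrial ribosome, 34 were higher (median 0.02), with Mrps10 at -0.49 ± 0.24 and Mrpl16 at -0.38 ± 0.20. In all 5 lists 0 passed by limma, beside the 0.121% of all probe sets. Within the bright arrays the medians of the 5 lists, in the order given, were 0.015, -0.0042, 0.048, -0.023 and -0.064. Within the dim arrays they were -0.13, -0.19, -0.30, -0.17 and 0.061.

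Fibre type and other cells were read in the same way. The slow fibre list had a median of -0.09 over 10 probe sets, with Mb, myoglobin, at -0.70 ± 0.21 and Tnni1, slow troponin I, at 1.07 ± 0.56, and the fast fibre list -0.04 over 11, with Actn3 at -0.31 ± 0.19 and Myh1 at 0.25 ± 0.20. All 11 tested macrophage probe sets were higher without dystrophin (median 1.30), as were all 8 of matrix cells (median 0.52), and 0 of each passed by limma. The part of other cells' RNA in the members' levels was not tested. In wild-type 2 the mitochondrial ribosome list (-0.27) and the assembly factor list (-0.43) were also at their lowest of the 9 arrays. The assembly factor list shares Ndufaf1 and Ndufaf4 with the members. The TCA cycle list was at -0.02 in that mouse, the carriers at -0.11 and the regulators at -0.04.

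**Figure D5:**
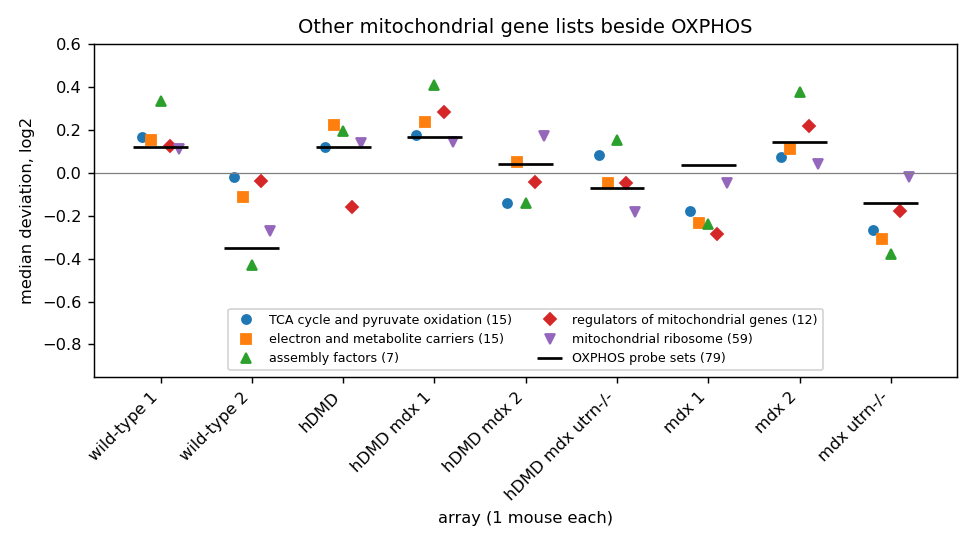
Median deviation (log2, y axis) of 5 other mitochondrial gene lists (coloured markers, number of tested probe sets in brackets) and of the 79 oxidative phosphorylation probe sets (black bars) in each of the 9 arrays (x axis). In mdx utrn-/- the bar lies at -0.14 with the TCA cycle list at -0.27 and the carriers at -0.31. The bar of wild-type 2 lies at -0.35, with the mitochondrial ribosome at -0.27 and the assembly factors at -0.43.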

How the data were processed

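RNA of gastrocnemius muscle was labelled and hybridised to Affymetrix U74Av2 arrays, per the labels. The authors deposited 1 linear intensity per probe set and array; how probes were summarised and scaled is not given in the sources used here, and 19.4 to 29.9% of values per array were 0 or below. Precision is limited by the 9 arrays. After 66 control probe sets were left out, arrays were quantile-normalised (limma 3.58.1 in R 4.3.3), values below 0 were set to 0, 16 was added and log2 taken. Probe sets with a mean above the 40th percentile (7453) were tested with lmFit and eBayes, with Benjamini-Hochberg adjustment over all of them and a threshold of 0.05. Dystrophin was tested as 2 classes of mice, pairs of genotypes from genotype means, and the human gene and utrophin in an additive fit of the 6 mice on mdx backgrounds, without a block. The fit was tried on simulated data, in which 100 probe sets changed by 1 log2 unit and 100 by 2. By limma at the same threshold, 47 and 67 of these were recovered for dystrophin, and 0 and 0 for mdx minus wild-type. For the human gene 0 and 47 were recovered, so a lack of calls can hide changes of these sizes. The simulated noise had the size of the spread within genotypes and held no differences among the genotypes of a class. The dystrophin fit of the real data takes those in, so its recovery counts need not hold there.

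Mice of a genotype were separate animals. Their spread, in the genotypes with 2 mice, is what the p-values of genotype pairs and of the F test measure. Each such genotype had 1 bright and 1 dim array, so this spread takes in array brightness as well. The p-values of the dystrophin classes also take in differences among the genotypes of a class. Those of the additive fit also take in any departure from additivity. Symbols come from the platform annotation, in which 10833 probe sets have 1 symbol, 396 several and 1193 none. Members and lists were chosen with earlier results of these data known. Named genes were the isoform families of complex IV, the members past the threshold in each comparison or else the 3 smallest p per direction, the 2 widest and the 1 narrowest range per complex, genes whose probe sets differed by more than 0.5, and the 2 smallest p per list. A few further subunits were named for their role, after their values were seen. Alternatives covered scaling, filter, pseudocount, trend, brightness, age, and each mouse left out.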

Additional observations from a re-analysis of the deposited data

Results flagged for a closer look

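Among 43 medians and named genes examined over the 6 dystrophin-carrying arrays, 2 had an array far from the others by Dixon's criterion (gap over range above 0.625), which chance alone gives in about 1 of 20 such groups. The complex V median was -0.48 in wild-type 2, with a gap of 0.636 of the range. Ndufaf4 was 5.15 in wild-type 2, with a gap of 0.767 of the range. Both were the low value of the same mouse.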

How the results depend on the processing

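The count of oxidative phosphorylation probe sets called was 0 in all 7 comparisons and under all 132 alternatives. Of 122 alternative medians, 8 moved by more than the pooled standard deviation of the members' array medians within genotypes, 0.20. Without normalisation the median was 0.49 for hDMD mdx minus mdx, 0.61 for hDMD mdx minus wild-type and -2.06 for utrophin, when those of all probe sets were 0.51, 0.53 and -1.20. Within dim arrays it was 0.43 for mdx minus wild-type. Leaving out 1 mouse gave -0.057 to 0.40 for mdx minus wild-type and -0.059 to 0.46 for hDMD mdx minus wild-type.

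Of 725 alternative values of named genes, 705 kept their direction and 20 reversed, none of them past the threshold. In mdx minus wild-type these were Ndufs4 within bright arrays (0.14) and Ndufaf4 within dim arrays (0.16) and without wild-type 1 (0.047; -0.71 to 0.047 over the mice left out). In hDMD mdx minus mdx they were Atp5g1 within bright arrays (-0.042) and without hDMD mdx 2 (-0.065; -0.065 to 1.41 over the mice left out), Cox7b without normalisation (0.045), and Cox6b2 without normalisation (0.30) and within bright arrays (0.073). In hDMD mdx minus wild-type they were, without normalisation, Cox6b2 (0.15), Cox7a2l (0.11) and Sdha (0.33), and Sdha without wild-type 1 (0.23) and without hDMD mdx 2 (0.10; -0.62 to 0.23 over the mice left out). For the human gene they were Cox6b2 without normalisation (0.083) and within bright arrays (0.073) and Cox7a2l within bright arrays (0.044). For utrophin they were Atp5c1 (-1.53), Ndufa10 (-1.43) and Atp5j2 (-0.61) without normalisation, and Atp5j2 without hDMD mdx utrn-/- (-0.016; -0.016 to 0.64 over the mice left out). The cause was not tested. No paired analysis was made, since each array was of a separate mouse and the labels pair no mice across genotypes. Genes near the floor, such as Ndufs4, are limited by signal over background: their differences depend on the pseudocount. With 1 or 2 mice per genotype, a lack of calls does not show equal levels.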
